A study of Mus musculus with 6 samples.

Results

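The junction and adhesion genes of the endothelium, the cell layer that lines blood vessels, were followed in denervated gastrocnemius muscle of mice fed maslinic acid (MA), a triterpene of olive peel. The group was taken by name, with earlier results of these data known, and holds 10 genes, Cldn5, Egfl7, Esam, Vwf, Cdh5, Pecam1, Icam1, Icam2, Vcam1 and Nos3. All 10 were measured, among 17097 genes that could be named on the array, by 13 probe sets that name no other gene. Mice of the MA group ate AIN-93G chow that held 0.27% MA, those of the control group ate it without MA, and each group had 3 arrays. All animals were male ICR mice, 7 weeks old when the study began. In both groups the sciatic nerves of both legs had been cut, with a piece of 5 mm removed, after the feeding had started, and the muscle was taken on day 14 after surgery. The arrays compare MA with the control diet in denervated muscle only, and no array of innervated muscle or of an earlier day was analysed here. Nothing in the sources ties an array to a mouse, so the spread that the p-values rest on is one between arrays and may be technical.

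Endothelial cells are held together by tight junctions, in which claudins seal the gap between cells, and by adherens junctions, in which VE-cadherin binds its like on the neighbouring cell and is tied to the cytoskeleton by catenins. On their inner surface they carry immunoglobulin-type adhesion molecules, to which the integrins of passing leukocytes bind. Inflammatory cytokines raise ICAM-1 and VCAM-1 through NF-κB, and flowing blood raises the nitric oxide synthase of the endothelium through KLF2 and KLF4. In skeletal muscle nearly all of this endothelium belongs to the capillaries that run between the fibers.

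The values are log2 RMA values, and a difference is the MA mean minus the control mean on that scale. Rose and fell are used where the limma fit over all 45037 probe sets gave an adjusted p under 0.05, and each gene is taken at its brightest probe set. The level that nonspecific binding reached, 3.95, served as the floor, and 40.5% of all probe sets had a mean at or under it. The arrays' medians lay between 4.266 and 4.276. All 18 probe sets of the hybridization controls, which are foreign transcripts put into each sample in a fixed amount, read higher on the MA arrays (median difference 0.17). Precision is limited by having 3 arrays a group, for which the smallest two-sided p of an exact permutation test is 0.1.

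Of the 10 genes, 9 fell in the MA group, none rose, and Vcam1 did not pass the test. Over all named genes 23.0% fell and 24.7% rose, shares given as description since the 10 were chosen with earlier results known. The 10 measured differences ranged between -0.41 and -0.04, their median was -0.24, and the median over all named genes was 0.006. Summed on the linear scale, the 10 genes reached 365 to 374 on the MA arrays and 434 to 446 on the control arrays. Such a sum, here and for the lists below, weighs the brightest genes most. A fall of over 1.2-fold was seen for 4 of the 10, Icam1, Vwf, Cldn5 and Cdh5, and for 6.87% of all named genes. The MA arrays and the control arrays were fully apart for 9 of the 10 genes, and for 58.6% of all named genes. Of the 13 probe sets, 11 fell and 1, a second probe set of Cdh5, rose, where 21.4% of all probe sets fell and 21.6% rose. When the arrays were shifted to equal hybridization controls, the median of all probe sets moved to -0.17, 77.5% of all named genes fell, 6.36% rose, and all 10 genes fell. Relative to the median of all probe sets, the median of the 10 genes was -0.25. It is the same with either scaling by construction, since each array is shifted by a constant.

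**Figure D1:**
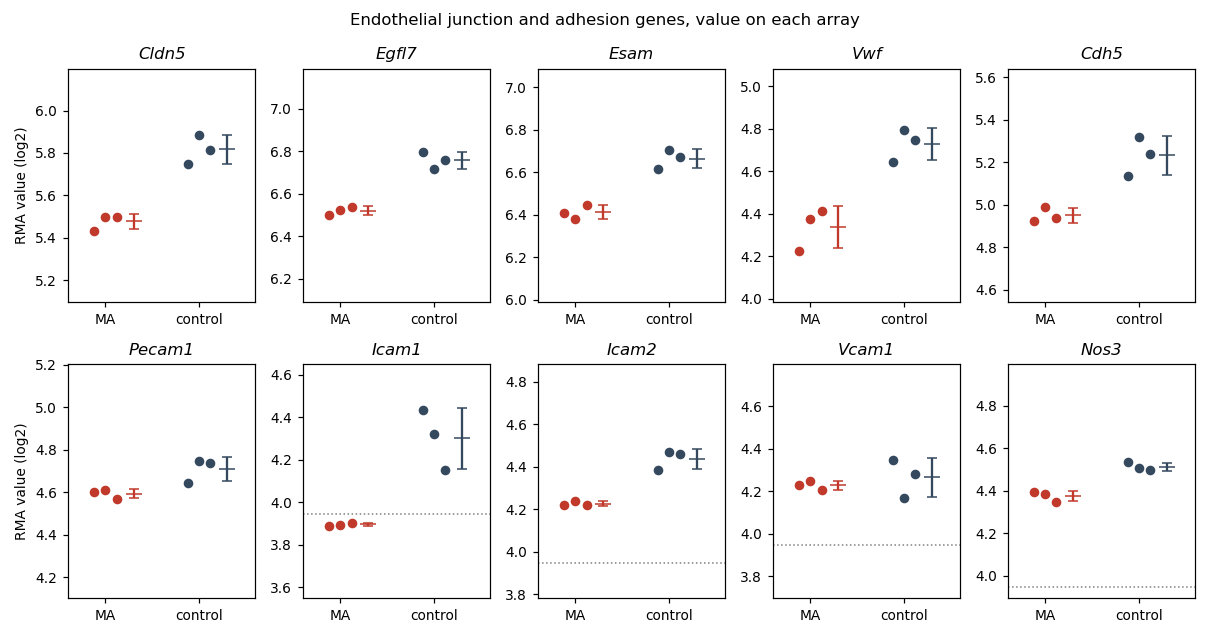
RMA value (log2, vertical axis) of each of the 10 genes at its brightest probe set on the 3 MA arrays (red, left) and the 3 control arrays (dark, right), with the mean and SD (n = 3) beside the points and a dotted line at the floor of 3.95. Each panel spans the same range of log2 values. The groups do not overlap except for Vcam1, and all 3 MA arrays of Icam1 lie under the floor.

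The junction genes were lower by modest amounts. Cldn5, the claudin that dominates endothelial tight junctions, stood at 5.43, 5.50 and 5.50 on the MA arrays, against 5.75, 5.89 and 5.82 on the control arrays. Every MA array was under every control array, and the means were 5.48 ± 0.037 and 5.82 ± 0.068 (SD, n = 3 each). The difference was -0.34 (standard error 0.037, 95% interval -0.43 to -0.25, adjusted p = 0.000151), a 1.27-fold fall.

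Cdh5, the VE-cadherin of adherens junctions, had 4.92, 4.99 and 4.94 on the MA arrays and 5.14, 5.32 and 5.24 on the control arrays at its brighter probe set. There the groups did not overlap, and Cdh5 fell by 0.28 (standard error 0.045, adjusted p = 0.00122), or 1.22-fold. Its other probe set went the other way, with 4.21, 4.24 and 4.24 on the MA arrays and 4.07, 4.20 and 4.13 on the control arrays. At that probe set the difference was 0.10 (95% interval 0.02 to 0.18, adjusted p = 0.0469), and the groups again did not overlap. With both averaged, Cdh5 differed by -0.09 (adjusted p = 0.0814), so its fall rests on the brighter probe set.

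Esam, an immunoglobulin-type molecule found at endothelial tight junctions and on platelets, had 6.41, 6.38 and 6.45 on the MA arrays and 6.62, 6.70 and 6.67 on the control arrays. The groups were well apart, with a spread within each of at most 0.044 (SD, n = 3). Esam fell by 0.25 (standard error 0.030, adjusted p = 0.000227), or 1.19-fold. Pecam1, which joins endothelial cells to each other and is also carried by platelets and leukocytes, had 4.60, 4.61 and 4.57 on the MA arrays and 4.64, 4.75 and 4.74 on the control arrays. The groups did not overlap, but control 1 lay close to the MA arrays. Pecam1 fell by 0.12 (95% interval -0.19 to -0.04, adjusted p = 0.0189), the smallest fall of the 9, and was past the threshold no longer without MA replicate 3 (adjusted p = 0.0651), control replicate 2 (adjusted p = 0.0687) or control replicate 3 (adjusted p = 0.0644), or in the one-way test of the methods (adjusted p = 0.0775).

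**Figure D2:**
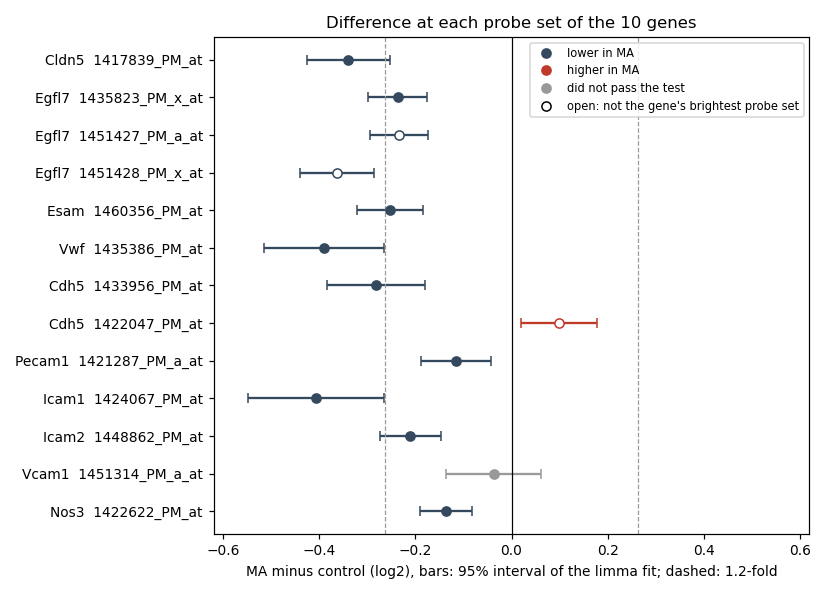
Difference of MA minus control (log2, horizontal axis) at each of the 13 probe sets, with the 95% interval of the limma fit. Filled points are the brightest probe set of a gene, open points its others, and dashed lines mark 1.2-fold. The second probe set of Cdh5 at 0.10 is the only one above 0, and the interval of Vcam1 crosses 0.

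Of the adhesion molecules that leukocytes bind, Icam1, the ligand of the β2 integrins LFA-1 and Mac-1, was under the floor in the MA group. It stood at 3.89, 3.90 and 3.90 on the MA arrays, against 4.44, 4.32 and 4.15 on the control arrays. The MA arrays were close to each other, while the control arrays were spread more widely than for any other of the 10 genes (SD 0.14, n = 3). The measured difference was -0.41 (standard error 0.062, adjusted p = 0.000961), and against the floor Icam1 was at least 1.28-fold lower in the MA group. Icam2, a ligand of LFA-1 that resting endothelium and platelets carry, had 4.22, 4.24 and 4.22 on the MA arrays and 4.38, 4.47 and 4.46 on the control arrays. All 6 values were above the floor without overlap, and Icam2 fell by 0.21 (standard error 0.028, adjusted p = 0.000449), or 1.16-fold.

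Vcam1, the ligand of the α4β1 integrin, which cytokines induce on endothelium and which satellite cells of muscle also carry, had 4.23, 4.25 and 4.21 on the MA arrays and 4.35, 4.17 and 4.28 on the control arrays. The control arrays lay on both sides of the MA arrays. The difference was -0.04 (95% interval -0.14 to 0.06, adjusted p = 0.512), so a fall of more than 0.14 or a rise of more than 0.06 lay outside the interval. The 95% interval of Icam2, -0.27 to -0.15, does not overlap that of Vcam1, but the difference between the genes was not tested, and for Icam1 only a bound can be given.

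The 250 bases before the start of Icam1 (chr9:21015690-21015939, plus strand) and before the first and the second of 3 annotated starts of Egfl7 (chr2:26580833-26581082 and chr2:26583615-26583864, plus strand) are shown because these genes fell and their windows hold letters that KLF or ETS factors bind. The sequences are from RefSeq on GRCm38.p6, whose promoter table matched 3 of the 10 genes, these and Cldn5. Capitals mark the letters CCACCC of KLF factors in Icam1, and CGGAAG or AGGAAG of ETS factors and CCACCC in Egfl7, on either strand.
Icam1: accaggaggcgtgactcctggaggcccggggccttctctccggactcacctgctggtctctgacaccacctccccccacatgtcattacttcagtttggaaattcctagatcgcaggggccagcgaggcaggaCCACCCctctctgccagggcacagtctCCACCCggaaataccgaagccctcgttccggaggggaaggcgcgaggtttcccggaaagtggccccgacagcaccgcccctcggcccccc
Egfl7 first start: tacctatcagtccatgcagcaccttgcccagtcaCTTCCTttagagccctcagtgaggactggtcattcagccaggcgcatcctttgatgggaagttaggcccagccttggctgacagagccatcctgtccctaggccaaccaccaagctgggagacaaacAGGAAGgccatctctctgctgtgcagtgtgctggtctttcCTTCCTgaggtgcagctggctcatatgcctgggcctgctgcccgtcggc
Egfl7 second start: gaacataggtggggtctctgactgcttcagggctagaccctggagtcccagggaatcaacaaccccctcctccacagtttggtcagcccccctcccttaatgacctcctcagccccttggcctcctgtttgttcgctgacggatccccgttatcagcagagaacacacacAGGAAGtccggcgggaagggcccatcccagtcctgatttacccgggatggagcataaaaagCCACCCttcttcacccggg

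In Icam1 CCACCC occurs 2 times, 90 and 117 bases before the start. The first start of Egfl7 holds ETS letters 3 times and the second 1 time. Among all 32841 windows of 250 bases in the table, 39.2% hold ETS letters and 28.1% hold CCACCC. The letters of NF-κB, in a form that begins with GGG (7.25% of all windows), GAAANNGAA of interferon response elements (7.13%) and ACAAAG of SOX factors (16.5%) were searched as well. Of these only ACAAAG was found, 1 time, at the third start of Egfl7. NF-κB sites that begin otherwise and ETS sites other than CGGAAG or AGGAAG were not searched, so nothing is said here of their presence. The window of Cldn5 held none of the 5 motifs. No match overlapped a match of another motif in these windows. A match of letters is a description and does not show that a factor binds there.

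The secreted and enzymatic members were lower too. Vwf, the clotting protein that endothelial cells store in Weibel-Palade bodies and that platelets bind, had 4.23, 4.37 and 4.41 on the MA arrays and 4.65, 4.79 and 4.75 on the control arrays. MA 1 was the lowest of all and made the MA arrays of Vwf the most spread of the 10 genes (SD 0.099, n = 3). The difference was -0.39 (standard error 0.054, 95% interval -0.52 to -0.27, adjusted p = 0.000601), a 1.31-fold fall, and -0.33 without MA replicate 1.

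Egfl7, a secreted protein of the endothelial matrix whose gene also hosts the microRNA miR-126, had 6.50, 6.52 and 6.54 on the MA arrays and 6.80, 6.72 and 6.76 on the control arrays at its brightest probe set. Its 3 probe sets all fell, by 0.24, 0.23 and 0.36, each without overlap between the groups (adjusted p between 5.5e-05 and 0.000176). For 2 of the 3 the name ends in x_at, which marks probes that may also bind other transcripts. Nos3, the endothelial nitric oxide synthase, had 4.40, 4.39 and 4.35 on the MA arrays and 4.54, 4.51 and 4.50 on the control arrays. Both groups were tight and did not overlap. Nos3 fell by 0.14 (standard error 0.024, 95% interval -0.19 to -0.08, adjusted p = 0.00206).

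The control arrays varied more than the MA arrays for 8 of the 10 genes. The median SD of the 10 genes was 0.022 on the MA arrays and 0.063 on the control arrays. Over all probe sets the median SD was 0.030 on the MA arrays and 0.034 on the control arrays. Of the control arrays, control 1 was the lowest for 6 genes, Cldn5, Esam, Vwf, Cdh5, Pecam1 and Icam2, and the highest for the other 4, Egfl7, Icam1, Vcam1 and Nos3. Control 2 was the highest for the 6. Within the MA group MA 1 was the lowest for 5 genes and MA 3 the highest for 5.

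The other endothelial genes were read from lists of partners and regulators, with the largest changes and the brightest gene of each list named. Counts here and in the marker lists stand beside 23.0% lower and 24.7% higher of all named genes. With equal hybridization controls these shares were 77.5% and 6.36%. Of 21 other genes of endothelial identity, 9 fell, 5 rose and 7 did not pass, with a median of -0.02, and 0 rose and 16 fell with equal hybridization controls. S1pr1, a receptor of sphingosine 1-phosphate that tightens endothelial junctions, had 5.11 ± 0.044 on the MA arrays and 5.66 ± 0.016 on the control arrays (SD, n = 3 each), a fall of 0.55 (adjusted p = 1.47e-06). Flt1, a receptor of VEGF, fell by 0.50 at its brightest probe set, by 0.21 at the second and differed by 0.04 at the third, which lay under the floor. Emcn, the sialomucin endomucin of capillaries and veins, fell by 0.30. Cd93, the brightest of the list, fell by 0.13, and differed by 0.024 when its 3 probe sets were averaged.

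Of 20 transcription regulators of the endothelium, 12 fell, 3 rose and 5 did not pass, with a median of -0.13, and 17 fell and 0 rose with equal hybridization controls. Klf2, which flow induces and which raises Nos3, stood at 5.61 ± 0.19 on the MA arrays and 6.68 ± 0.018 on the control arrays (SD, n = 3 each), a fall of 1.07 (adjusted p = 1.47e-05). Klf4, a relative with overlapping targets, fell by 0.90 and 0.71 at its 2 probe sets. Fli1, an ETS factor of endothelial and blood cells, fell by 0.66 at its brightest probe set and by 0.22 at the other. Mef2c, which skeletal muscle fibers also express, was the brightest, with means of 10.64 on the MA arrays and 10.55 on the control arrays. It rose by 0.08, and fell by 0.093 with equal hybridization controls.

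Junction partners of Cdh5 and Cldn5 went both ways. Of 23, 11 fell, 5 rose and 7 did not pass, with a median of -0.08, and 18 fell and 2 rose with equal hybridization controls. Among the catenins of cadherin junctions, Ctnna1 fell by 0.45, Ctnnd1 by 0.30 and Ctnnb1, the brightest of the list, by 0.21. Jup, a further catenin named after its value was seen, differed by 0.03 (adjusted p = 0.356). Vcl, the vinculin that joins both cadherin and integrin adhesions to actin, rose by 0.34. Most of these genes are expressed in muscle fibers and other cells as well. The other 2 probe sets of Ctnnb1 fell by 0.38 and 0.44, and of the other 2 of Ctnnd1 one fell by 0.17 and one differed by 0.02 (adjusted p = 0.639).

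Of 17 leukocyte integrins, selectins and their partners, 7 fell, 2 rose and 8 did not pass, with a median of -0.01, and 16 fell and 0 rose with equal hybridization controls. Itgb2, the β2 integrin chain that binds Icam1 and Icam2, fell by 0.69, with 4.76 ± 0.046 on the MA arrays and 5.45 ± 0.069 on the control arrays (SD, n = 3 each). Itgb7 and Selplg, the ligand of P-selectin, averaged 3.89 and 3.83 in the MA group, under the floor, and against it fell by at least 0.26 and 0.18. Itgb1, the partner chain of α4 in the receptor of Vcam1, differed by 0.05 (adjusted p = 0.0721) where it was brightest and rose by 0.19 and 0.15 at the next 2 probe sets. With equal hybridization controls the first of these differences was -0.12.

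Among 20 genes around nitric oxide, 7 fell, 3 rose and 10 did not pass, with a median of -0.03, and 18 fell and 1 rose with equal hybridization controls. Vasp, an actin regulator that the kinase downstream of nitric oxide phosphorylates, fell by 0.44, and Hsp90aa1, a chaperone of the Hsp90 family that binds the synthase, by 0.44. Nostrin, which carries the synthase away from the membrane, rose by 0.43, with 4.85 ± 0.062 on the MA arrays and 4.42 ± 0.073 on the control arrays (SD, n = 3 each).

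Of 14 genes of hemostasis and Weibel-Palade bodies, 4 fell, 3 rose and 7 did not pass, with a median of 0.009, and 10 fell and 2 rose with equal hybridization controls. Procr, the endothelial receptor of protein C, fell by 0.90, with 6.30 ± 0.024 on the MA arrays and 7.20 ± 0.11 on the control arrays (SD, n = 3 each). Plat, the tissue plasminogen activator, rose by 0.87 at its brighter probe set and differed by -0.005 at the other (adjusted p = 0.898), and Anxa2, a cell surface site of plasminogen activation that many cells express, rose by 0.55. Of 15 genes of vessel segments, 6 fell, 3 rose and 6 did not pass, with a median of -0.09, and 12 fell and 1 rose with equal hybridization controls. Ly6c1 fell by 0.33, the water channel Aqp1 by 0.31 and Fabp4, a fatty acid carrier shared with fat cells, by 0.22. Vcan, a matrix proteoglycan that other cells also make, rose by 0.76. Also in this list, Rgcc rose by 0.18 and Cd36 fell by 0.13, both named after their values were seen.

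Of 16 genes of cytokine and NF-κB signalling, which induces adhesion molecules, 10 fell, 1 rose and 5 did not pass, with a median of -0.25, and 15 fell and 1 rose with equal hybridization controls. Birc3, a target of NF-κB, fell by 0.81, Irf1, which interferon gamma induces, by 0.80, Nfkbia, the inhibitor and target of NF-κB, by 0.73, and Rela, its main activating subunit, by 0.34. The 10 that fell include targets or inhibitors of NF-κB, among them Nfkbia, Tnfaip3, Birc3 and Traf1. They also include Ifng, which was under the floor in both groups. The 1 that rose was Il1r1, a receptor of interleukin 1, by 0.34. The cytokines Tnf (0.05), Il1b (-0.10) and Il6 (-0.02, under the floor in both groups) did not pass. Il1r1 and these cytokines are named after their values were seen. All genes of this list were measured on the same arrays as Icam1, and their part in its fall was not tested. Both group means were under the floor for 3 of the 21 identity genes, 2 of the 20 regulators, 4 of the 23 junction partners and 3 of the 17 leukocyte genes. The same held for 4 of the 20 nitric oxide, 1 of the 14 hemostasis, 2 of the 16 cytokine and 6 of the 15 vessel segment genes. Among these, Tie1, Tal1, Magi1, Arg2, Ifng, Car4 and Sema3g count as fallen, and Esm1, Sele, Gp1bb and Vegfc as risen.

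**Figure D3:**
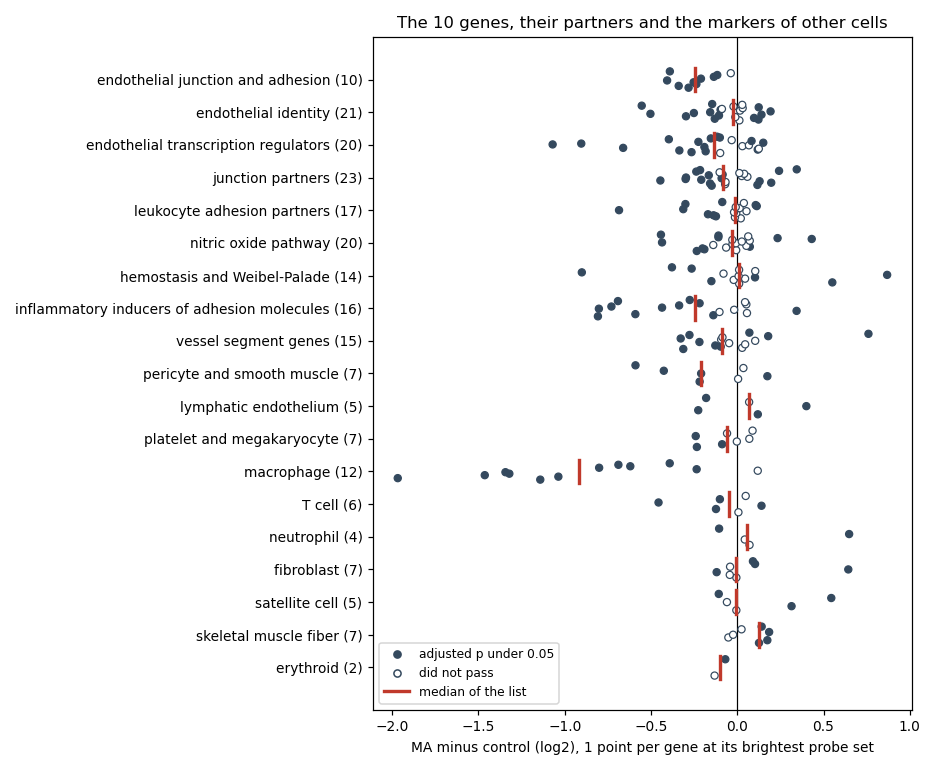
Difference of MA minus control (log2, horizontal axis) of each measured gene of the 10 members, their partner lists and the marker lists of other cells, with the number of genes in brackets, 1 point per gene. Points are filled for genes past an adjusted p of 0.05, and red bars mark list medians. The median is -0.24 for the 10 genes, -0.02 for other genes of endothelial identity and -0.92 for macrophage markers.

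Markers of other cells moved in the same arrays. The tissue was plain from its fibers, with Tnnc2 averaging 12.64 and Acta1 12.62 on the MA arrays. Of 7 fiber genes 4 rose, Acta1 by 0.13, and 3, among them Tnnc2 at 0.02 (adjusted p = 0.371), did not pass, which became 0 higher and 3 lower with equal hybridization controls, with Acta1 at -0.050 and Tnnc2 at -0.15. In whole muscle, fewer cells of a type and less RNA per cell cannot be told apart. Macrophage markers fell in 11 of 12 cases with either scaling, with a median of -0.92, Lyz2 by 0.69 and Ctss by 0.80. Their summed linear level was 2154 to 2221 on the MA arrays and 3769 to 3852 on the control arrays. Of 7 genes of pericytes and smooth muscle, the cells that wrap the vessels, 4 fell, 1 rose and 2 did not pass, and 6 fell and 0 rose with equal hybridization controls. Rgs5 fell by 0.59 at its brightest probe set and fell by 0.56, 0.57 and 1.00 at the others, and Acta2 fell by 0.22. Kcnj8 rose by 0.17 and Pdgfrb differed by 0.04 (adjusted p = 0.283), both named after their values were seen. The summed level of the list, in which Rgs5 weighs most, was 1147 to 1171 on the MA arrays and 1582 to 1605 on the control arrays.

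Platelets carry Esam, Pecam1, Icam2 and Vwf. Of 7 platelet genes 3 fell and 4 did not pass, Pf4 by 0.24 and Gp5 by 0.23, and 6 fell with equal hybridization controls. Their summed level, in which Pf4 weighs most, was 240 to 242 on the MA arrays and 264 to 270 on the control arrays. Of 5 markers of lymphatic endothelium 2 rose and 2 fell (1 and 3 with equal hybridization controls), with Pdpn, which fibroblasts share, higher by 0.40 and Reln lower by 0.18. The sums, in which Pdpn weighs most, were 150 to 154 on the MA arrays and 138 to 143 on the control arrays. Pdpn averaged 6.07 on the MA arrays and 5.67 on the control arrays, and Reln, the next brightest, 4.69 and 4.87. Of 5 satellite cell genes, which matter because these cells carry Vcam1, 2 rose, 1 fell and 2 did not pass (2 rose and 3 fell with equal hybridization controls). Myf5 rose by 0.54 and Chodl differed by -0.06 (adjusted p = 0.215). Cdh15 rose by 0.31, and Pax7, under the floor in the MA group, was lower with a measured difference of -0.11 (adjusted p = 0.0146). Cdh15 and Pax7 are named after their values were seen. The sums, in which Myf5 weighs most, were 363 to 378 on the MA arrays and 288 to 290 on the control arrays.

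Of 6 T cell markers 3 fell, Cd4 by 0.10, and 1, Cd3e, rose by 0.14, while 5 fell, 0 rose and Cd3e was at -0.035 with equal hybridization controls. The sums were 126 to 128 on the MA arrays and 127 to 129 on the control arrays. Of 4 neutrophil genes 1 rose, S100a8 by 0.65, and 1 fell, with Elane at 0.07 (adjusted p = 0.107), and with equal hybridization controls 1 rose and 3 fell, with Elane at -0.10. The sums, in which S100a8 weighs most, were 141 to 144 on the MA arrays and 102 to 108 on the control arrays. Of 7 fibroblast genes 3 rose, Lum by 0.64, Smoc2 by 0.091 and Pi16, under the floor in the control group, by at least 0.056, which are named after their values were seen, and 1, Dpt, fell by 0.12, with Dcn at -0.04 (adjusted p = 0.128), and with equal hybridization controls 1 rose and 6 fell. The sums were 3459 to 3490 on the MA arrays and 3384 to 3408 on the control arrays. Of 2 erythroid genes Hba-a1 fell by 0.07 and Alas2 differed by -0.13 (adjusted p = 0.0515), both fell with equal hybridization controls, and the sums were 2001 to 2025 on the MA arrays and 2105 to 2121 on the control arrays. Both group means were under the floor for 2 of the 6 T cell, 2 of the 4 neutrophil, 1 of the 7 pericyte, 1 of the 7 platelet and 1 of the 5 satellite cell genes, and for none of the other marker lists. The part of any of these cells in the falls of the 10 genes was not tested.

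**Figure D4:**
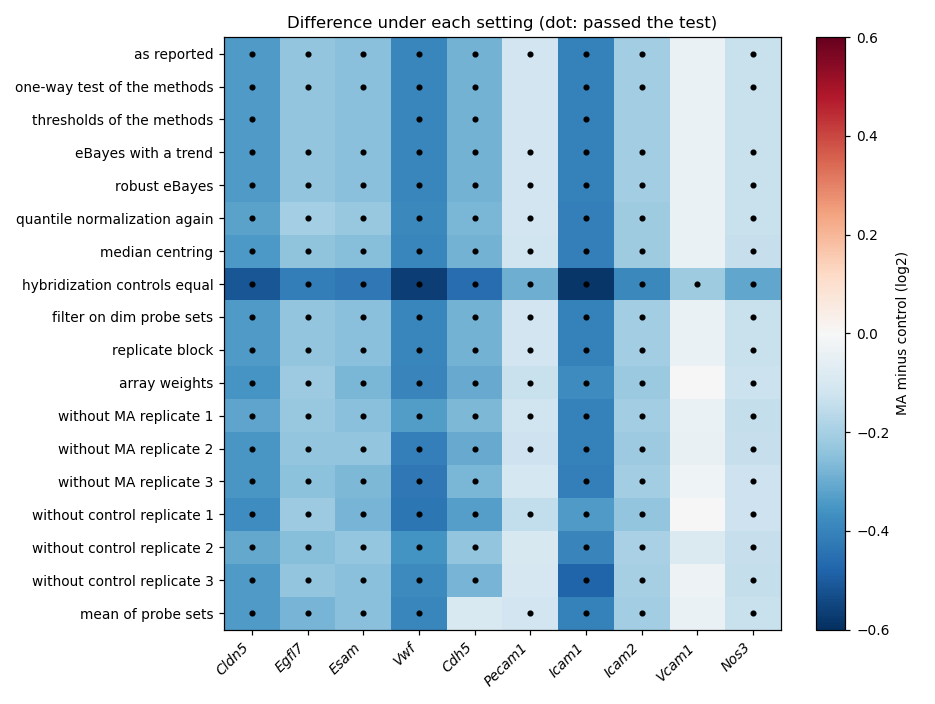
Difference of MA minus control (log2, colour) of each of the 10 genes (columns) as reported and under each alternative that measured it (rows), with a dot where the gene passed the test of that row. Cldn5, Vwf and Icam1 passed in every row shown, Cdh5 in all but the mean of its probe sets, and Vcam1 with equal hybridization controls only.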

How the data were processed

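The authors labelled gastrocnemius RNA with a 3' IVT kit, hybridized it to Affymetrix mouse array strips and made RMA values in Expression Console. Its version and the arrays that shared a strip are not given in the sources used here. For their comparison they used version 4 of Transcriptome Analysis Console. A human array stands in the design text of the series, but probe sets carry mouse array names, as the methods say. The deposited values are log2 RMA values, already background corrected and quantile normalized, which compresses small changes of dim probe sets. They were used without further normalization.

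Of 45141 probe sets, 104 controls were set aside, and 28898 of the remaining 45037 named 1 gene in the platform annotation. Each probe set was fitted with limma 3.58.1 in R 4.3.3 (lmFit, eBayes), with Benjamini-Hochberg adjustment over all 45037. The floor is the highest value of the nonspecific-binding controls GC3 to GC24. GC25 stood at 7.11 or more, unlike the others, and was left out of the floor. Where a group mean was under the floor, a fold was computed against the floor. Gene lists were described by counts and medians, without a set test. A further promoter motif is not reported here. From each partner list the 3 called, non-overlapping genes with the largest difference and the brightest gene are named, and from each marker list the 2 brightest.

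The members and lists were chosen with earlier results of these data known. The steps were tested on simulated data. No array was left out. Results were recomputed with the methods' one-way test and thresholds, with eBayes using a trend or robust, after 3 further normalizations, after removing dim probe sets, with array weights or a replicate block, with averaged probe sets and without each array in turn.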

Additional observations from a re-analysis of the deposited data

How the results depend on the processing

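The count of 9 lower and 0 higher genes among the 10 kept within 8 to 10 lower and 0 higher under the alternatives, except for the thresholds of the methods (4 lower genes and 5 lower probe sets) and the filter that includes GC25, chosen after seeing the data, which left 0 of the 10 genes and 0 of their probe sets. The probe sets called numbered 19331, against 4633 at the thresholds of the methods, 38362 with equal hybridization controls and 5301 with the GC25 filter. The second probe set of Cdh5 was no longer higher, so that 0 probe sets of the 10 genes rose, in the one-way test, at the thresholds of the methods, with a trend, with quantile normalization again, median centring, equal hybridization controls, the GC25 filter and array weights, and 0 to 1 rose when 1 array was left out. Vcam1 lay between -0.086 and 0.0034 when 1 array was left out, the highest without control replicate 1, and passed with equal hybridization controls (-0.21, adjusted p = 0.000571). That scaling turned Mef2c to -0.093, Itgb1 to -0.12, Cd3e to -0.035, Elane to -0.10, Tnnc2 to -0.15 and Acta1 to -0.050, and averaging probe sets turned Cd93 to 0.024. The measured difference of Icam1, whose MA arrays are under the floor, lay between -0.48 without control replicate 3 and -0.34 without control replicate 1. The cause of these changes was not tested, beside the constant shift that equal hybridization controls apply by construction.

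Same-numbered arrays of the groups had deviations that correlated at 0.19, 0.04 and 0.14, and 2 of 3 correlated best with their own. Whether same-numbered arrays shared a strip or a batch is not given in the sources and cannot be told from these values. With the replicate block the probe sets called numbered 19844 and no call among the 10 genes changed. Small differences near the floor are limited by signal over background, which concerns Icam1 most. It also concerns Vcam1, Icam2, Vwf and Nos3, whose MA means lay between 4.23 and 4.38, not far above the floor of 3.95. The second probe set of Cdh5 is concerned as well, with means of 4.23 on the MA arrays and 4.13 on the control arrays.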
